A study of Homo sapiens with 6 samples.

Results

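Sites of 25 nt or less make up a small class of the sites called on mRNA in HITS-CLIP of HA-tagged AEG1. They were chosen by their measured width alone, the end minus the start of a site in either HITS-CLIP AEG1 library, so their widths are given as a description. There are 434 of 6378 sites in replicate 1 and 396 of 5651 in replicate 2, together 830 of 12029 HITS-CLIP AEG1 sites and of 72385 sites in the whole series. The short sites of replicate 1 lay on 422 mRNAs of 421 genes and those of replicate 2 on 388 mRNAs of 387 genes. Where overlapping short sites of the replicates are merged, they form 659 loci on 631 mRNAs of 630 genes.

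The series asked which RNAs AEG1 contacts in AEG-1-14 cells, a HepG3-based line that the labels call hepatoblastoma and that stably expresses AEG1 whose C-terminus carries an HA tag. All libraries therefore carry the tagged protein, and whether the line is 1 clone is not stated by the labels. HITS-CLIP AEG1 (2 libraries) was irradiated at 254 nm and PAR-CLIP AEG1 (1 library) at 365 nm, while the HITS-CLIP negative controls (2 libraries) and the PAR-CLIP negative control (1 library) had no UV but went through the same anti-HA precipitation. The labels do not say that the replicates came from separate cultures, so the spread between them may be technical, and the read depth behind a site is unknown.

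UV light bonds RNA to the protein that touches it, and nuclease then trims the RNA outside the contact before the fragments are sequenced. A called site is a stretch of mRNA where such fragments pile up, and a library made without UV shows which RNA is recovered without the bond. AEG1, encoded by MTDH, sits in the membrane of the endoplasmic reticulum and has been studied in liver cancer, and mRNAs of secreted and membrane proteins are translated at that membrane.

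The 6 libraries held 6378 and 5651 sites in HITS-CLIP AEG1, 60085 in PAR-CLIP AEG1, 60 and 90 in the unirradiated HITS-CLIP libraries and 121 in the unirradiated PAR-CLIP library. Of 12 hepatoblastoma markers, 9 carried sites in both HITS-CLIP AEG1 replicates, among them AFP, the fetal serum protein, with 15 and 14 sites, and GPC3, a surface proteoglycan of fetal liver, with 14 and 15. HNF4A, a transcription factor of hepatocytes, had 0 sites in both HITS-CLIP AEG1 replicates and 10 in PAR-CLIP AEG1, IGF2 had 1 and 0, and DLK1 had none in these libraries. ALB, serum albumin, had 5 and 10 sites in HITS-CLIP AEG1 and 3 in PAR-CLIP AEG1, against 11 and 9 sites without UV in HITS-CLIP and 13 without UV in PAR-CLIP, and none of these HITS-CLIP AEG1 sites was short. Of 22 genes that mark blood, endothelium and connective tissue, 3 genes had a HITS-CLIP AEG1 site in either replicate, and 1 of them, CD68, had a short one. MTDH itself had 10 and 8 HITS-CLIP AEG1 sites, and SND1, which encodes a binding partner of AEG1, had 1 and 0. No MTDH or SND1 site was short.

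No site in the HITS-CLIP AEG1 libraries was narrower than 18 nt. The short sites had a median width of 21 nt in each HITS-CLIP AEG1 replicate, within libraries whose median over all sites was 51 and 52 nt. Sites of 18 to 20 nt numbered 183 in replicate 1, or 42.2% of its short sites, and 176 in replicate 2, or 44.4%. Most of these were 19 or 20 nt wide, with 75 and 85 sites in replicate 1 and 72 and 77 in replicate 2. The limit of 25 nt falls in no empty gap: 53 and 36 sites were just inside it at 25 nt, and 61 and 39 just outside it at 26 nt. It lies near a low between a local peak at 20 nt and the wider sites. Counts fell to 43 at 24 nt in replicate 1 and to 34 at 23 nt in replicate 2. At 40 nt they had risen to 133 and 129.

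The short sites were 6.80% of the sites of HITS-CLIP AEG1 replicate 1 (95% interval 6.20 to 7.45) and 7.01% of those of replicate 2 (6.36 to 7.70). In the HITS-CLIP controls, 39 of 60 and 61 of 90 sites were as short, which is 65.0% (51.6 to 76.9) and 67.8% (57.1 to 77.2). The control without UV thus consisted mostly of sites of this width, while the irradiated libraries did not. The mean share was 6.91% ± 0.144 in HITS-CLIP AEG1 and 66.4% ± 1.96 in its control (SD, n = 2 each), a ratio of 0.104. The number of short sites ran the other way, with a mean of 415 ± 26.9 in HITS-CLIP AEG1 and 50 ± 15.6 in its control (SD, n = 2 each), a ratio of 8.3. The groups did not overlap in either measure. Since width chose the sites, both measures are a description with no test. Both ratios hang on the limit, at 5.13 for numbers and 0.0641 for shares with 20 nt, and at 14.2 and 0.178 with 30 nt. For sites longer than 25 nt the corresponding ratio of numbers was 224. PAR-CLIP AEG1 had 145 short sites, 0.241% of its sites, and its control 4, or 3.31%, with 1 library each. In the controls most of the short sites were also at the low end, with 18 to 20 nt for 71.8% and 68.9% of the short sites of the HITS-CLIP controls.

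**Figure D1:**
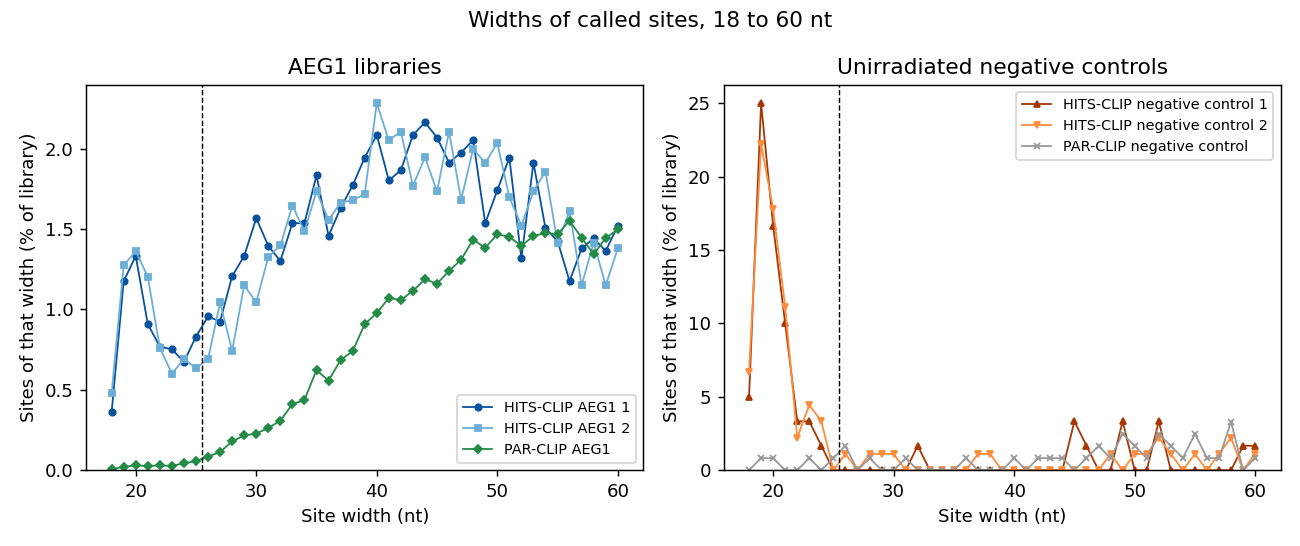
Share of each library's sites (%) at each width from 18 to 60 nt, for the AEG1 libraries (left) and the unirradiated negative controls (right), with a dashed line after 25 nt. The HITS-CLIP controls have their mode at 19 nt. The HITS-CLIP AEG1 libraries spread over the whole range with medians of 51 and 52 nt, and also have a local peak at 20 nt.

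The genes of the short sites were mostly represented once. Only 28 mRNAs held more than 1 short locus, and none held more than 2. A short site was the only site on its mRNA in its library for 306 of 434 (70.5%, 66.0 to 74.8) in replicate 1 and 304 of 396 (76.8%, 72.3 to 80.8) in replicate 2. Among longer sites of the same libraries this held for 11.8% and 11.6%. Of the 659 loci, 151 (22.9%) were the only place on their mRNA with a site in any of the 6 libraries. The same share is not given over longer sites, so this count describes the short loci alone.

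The short sites carried few mRNAs of the endomembrane system, a pool of 7 lists with 315 genes of secreted, lysosomal, receptor, Golgi and endoplasmic reticulum proteins. They contributed 35 short sites (8.06%) in replicate 1 and 24 (6.06%) in replicate 2, while 33.2% and 34.5% of the longer sites lay on these genes. Counted by gene, which sets aside that such mRNAs often carry many longer sites, the pool made up 7.84% and 6.20% of the genes with a short site, against 15.5% and 16.2% of the genes with a longer one. Short sites in either replicate were found on 52 of the 250 pool genes that had a HITS-CLIP AEG1 site at all, and on 5 in both replicates. This is 20.8% of them, against 28.1% of all genes with such a site (630 of 2241). The share of short sites on the pool hangs on the width limit: its mean over the replicates was 7.06% at 25 nt, 4.17% at 20 nt and 14.3% at 30 nt. The pool of cytosolic and nuclear proteins, 308 genes, held 13 short sites in each replicate (3.0% and 3.28%), against 7.89% and 7.02% of the longer sites. By gene, it made up 3.09% and 3.36% of the genes with a short site, against 8.52% and 7.82% of those with a longer one. Its genes with a short site in either replicate numbered 21 of 157 (13.4%, against 28.1% of all genes), with 5 in both. Both pools thus made up a smaller share of the short class than of the longer one, and no test was made of either.

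Of all sites, 6.80% and 7.01% were short, and each endomembrane list lay below that in both replicates. Plasma membrane receptors and transporters, the list with most genes, had 9 short sites in replicate 1 and 8 in replicate 2, or 1.91% and 1.86% of the list's sites. ERBB2, a receptor tyrosine kinase, had a short site in both, scored 6.39 and 4.80, and a PAR-CLIP AEG1 site there scored 7.39. The score is the authors' log2 value of a site. Its normalization, also between libraries, is not stated in the labels or the files, so scores are compared within an mRNA only. A score difference between libraries may also hold a difference in scale, which was not tested. Golgi and vesicle transport proteins had 8 and 3 short sites, or 4.40% and 2.05% of theirs. Secreted liver proteins had 7 and 2, with APOB, the structural protein of liver lipoproteins, holding 2 short sites at 1.74 and -0.26 in replicate 1. These 9 sites compare with 484 and 480 longer sites on the same list. Lysosomal proteins had 2 and 4, among them GLA, the alpha-galactosidase of the lysosome, at 5.89 and 6.89, and a PAR-CLIP AEG1 site at 9.59. The remaining endomembrane lists had 5 and 2 short sites for folding and quality control, 3 and 1 for translocation and glycosylation, and 1 and 4 for lipid and sterol enzymes.

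On the cytosolic and nuclear side, each of the 7 lists had at most 3 short sites in a replicate. Chromatin and nuclear factors stood above the share of all sites, with 3 of 18 (16.7%) and 2 of 7 (28.6%) of their sites short, counts too small to read further. In the other 6 lists the short share was between 0.662% and 7.14%. Nuclear-encoded mitochondrial proteins, a list in neither pool, also lay above the share of all sites. They had 3 and 2 short sites, or 9.09% and 11.8% of the list's sites, again small counts. The 2 sites of replicate 2 were both on 1 gene, PC. LARS1, a tRNA synthetase, was listed with a short site at 5.50 in both replicates, and PSMA2, a proteasome subunit, at 3.95 and 4.95. The replication-dependent histones, with 6 and 5 sites in all and 0 of them short, had too few sites for a share to be read. Genes named ZNF and a number, mostly zinc finger genes, were counted after their frequency had been seen. They held 11 short sites (2.53%) in replicate 1 and 12 (3.03%) in replicate 2, against 6 (0.101%) and 8 (0.152%) longer sites. Because the group was picked for this, the shares are a description.

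The mRNAs with the most short sites had 3 or 4 over both replicates. MAP2K7 (NM_145185), a kinase of the JNK pathway, had 2 loci, at nt 36 to 60 with 4.93 in both replicates and at nt 1933 to 1958 with 5.94 and 4.93. The second locus of MAP2K7 also had a PAR-CLIP AEG1 site at 6.94 and a PAR-CLIP control site at 4.93. The AKAP2 and PALM2-AKAP2 transcripts, listed under PALM2AKAP2, had 1 short site each in both replicates. As their sequences may coincide, the 2 transcripts are named together as uncertain, but both stay in all counts of sites and loci. MCC (NM_002387), named for its mutation in colorectal cancer, had a short site at nt 2919 to 2938 in replicate 1 (13.30) and another at nt 6829 to 6852 in both replicates (14.12 and 11.80). ZNF398 (NM_020781), a zinc finger gene, had nt 180 to 199 in both replicates at 10.24 and 11.25 and nt 5197 to 5216 in replicate 2 alone at 11.16. IKZF4 (NM_022465), an Ikaros family transcription factor, had nt 367 to 391 in both at 9.88 and 9.88, and nt 1648 to 1666 in replicate 1 at 10.88 with a HITS-CLIP control site at 9.80.

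Other genes with 3 short sites likewise had 1 locus short in both replicates and 1 short in a single one. KATNIP (NM_015202) was short in both at nt 4580 to 4599 (8.84 and 9.42), SKA3 (NM_145061), a kinetochore protein, at nt 175 to 192 (7.51 and 7.51), and POGK (NM_017542) at nt 83 to 102 (7.84 and 7.84). PC (NM_001040716), the mitochondrial pyruvate carboxylase, was short in both at nt 3018 to 3037 (7.88 and 8.22), whereas at nt 1019 to 1036 its site was longer in replicate 1 and short in replicate 2, both at 8.30. PZP (NM_002864), a plasma protease inhibitor, was short in both at nt 1713 to 1736 (8.12 and 7.79), where PAR-CLIP AEG1 had a site at 8.52.

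Recurrence between the replicates was measured by overlap of at least 1 nt on the same mRNA. Of the short sites, 223 of 434 in replicate 1 (51.4%, 46.6 to 56.2) met a site of any width in replicate 2, where all sites of replicate 1 did so in 63.2 percent. In the other direction 234 of 396 short sites (59.1%, 54.1 to 64.0) met a site of replicate 1, where all sites did so in 71.3 percent. A narrow site has fewer positions at which to be overlapped, so midpoints were also compared. The midpoint lay inside a site of the other replicate for 51.4% and 59.1% of the short sites. For longer sites this was 59.0% and 67.4%, and for all sites 58.5 and 66.8 percent. Among the longer sites, those of 26 to 30 nt had 47.9% and 62.5%, and those of 31 to 40 nt 49.9% and 62.4%. Sites over 75 nt had 73.7% and 79.7%. The lower share was thus not particular to the short class. The difference between short and longer sites was wider at the level of the mRNA. A site anywhere on the mRNA in the other replicate was listed for 67.3% and 68.2% of short sites. For longer sites this was 91.9% and 94.5%, and for all sites 90.2 and 92.6 percent. The mRNAs of short sites held a median of 1 site in the same library, and those of longer sites 8. This measure takes no account of that number.

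The partner of a recurrent short site was usually short as well. In 171 pairs both sites were short, which is 39.4% (34.8 to 44.2) of the short sites of replicate 1 and 43.2% (38.2 to 48.2) of those of replicate 2, where all sites met a short site in 3.67 and 3.95 percent. Longer sites met a short one in 1.06% and 0.990% of cases. By locus, 171 of 659 (25.9%) were short in both replicates, 115 (17.5%) short in 1 and longer in the other, 211 (32.0%) listed in replicate 1 alone and 162 (24.6%) in replicate 2 alone.

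The paired short sites began and ended at nearly the same nt. The start was identical in 114 of 171 pairs (66.7%), the end in 111 (64.9%) and both in 82 (48.0%). Both ends lay within 2 nt in 161 pairs (94.2%). Of 3754 pairs of longer sites, 10.7% shared the start, 7.88% the end and 1.23% both, with 6.79% within 2 nt at both ends. Width limits how far the ends of overlapping short sites can differ, so the contrast follows in part from the widths. The nearest wider class, 26 to 33 nt in both replicates, had 64 of 101 pairs (63.4%) within 2 nt. The scores of the short pairs were equal within 0.01 in 51 pairs (29.8%), higher in replicate 1 in 70 and higher in replicate 2 in 50. They differed by at most 1 in 151 pairs (88.3%), against 67.1% of the pairs of longer sites.

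**Figure D2:**
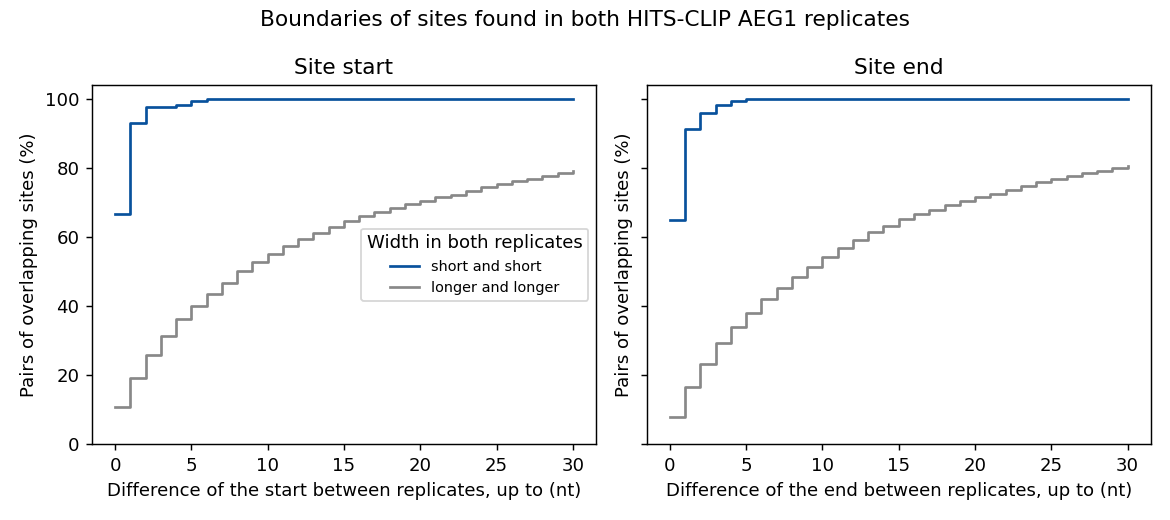
Cumulative share (%) of pairs of overlapping HITS-CLIP AEG1 sites whose start (left) or end (right) differs by up to the number of nt on the x axis, by width class in both replicates. Pairs of short sites begin at 66.7% for the start and 64.9% for the end at a difference of 0 nt, and pairs of longer sites at 10.7% and 7.88%.

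The negative controls had a site at a minority of short sites. In replicate 1, 40 of 434 (9.22%, 6.67 to 12.3) met a site of any of the 3 controls, and in replicate 2, 50 of 396 (12.6%, 9.52 to 16.3), where all sites did so in 2.34 and 2.76 percent. Among longer sites the shares were 1.83% and 2.02%. Nearly all of this overlap was with the HITS-CLIP controls, at 39 sites in replicate 1 and 47 in replicate 2, where all sites met them in 1.11 and 1.49 percent. HITS-CLIP control 1 had a site at 28 and 30 short sites (all sites 0.674 and 0.867 percent), and control 2 at 35 and 41 (all sites 0.878 and 1.2 percent). The PAR-CLIP control met 1 and 4 short sites, where all sites met it in 1.43 and 1.59 percent. The share was larger at 18 to 20 nt, with 13.7% and 18.2%, than at 21 to 25 nt, with 5.98% and 8.18%. As a mean of the replicates, control presence was 10.9% at the limit of 25 nt, 6.90% at 30 nt and 6.78% where the whole short site had to lie inside the control site.

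Control sites were also counted by whether a short locus recurred. Among the 171 loci short in both, 32 had a control site (18.7%, 13.2 to 25.4), against 19 of 373 loci listed in a single replicate (5.09%, 3.09 to 7.84) and 7 of the 115 that were longer in the other replicate. Of the 32, 21 were short in both HITS-CLIP controls too. Read from the controls, 35 of the 39 short sites of control 1 (89.7%) and 45 of the 61 of control 2 (73.8%) lay at a short site of HITS-CLIP AEG1. A HITS-CLIP AEG1 site of any width met 94.9% and 85.2% of these short control sites. It met longer control sites at least as often, at 21 of 21 (100%) in control 1 and 28 of 29 (96.6%) in control 2. Each control's short sites met a short site in both AEG1 replicates in 59.0% and 47.5% of cases. The boundaries matched here as well, with both ends within 2 nt in 28 of 28 pairs of AEG1 replicate 1 with control 1, 29 of 30 of replicate 2 with control 1, 30 of 34 of replicate 1 with control 2 and 36 of 40 of replicate 2 with control 2. Between the 2 controls this held for 25 of 26 pairs. Only pairs with both sites of 25 nt or less were compared here, so width again limits how far their ends can differ.

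The loci that were short in both AEG1 replicates and had a control site are shown by 15 with the highest score in the lower of the replicates. In each of them the short site was the only site on its mRNA in both replicates. KIF7 (NM_198525), a kinesin family protein of Hedgehog signalling, had the same start and end, nt 3650 to 3671, in 4 libraries, with 9.74 and 9.74 in HITS-CLIP AEG1 and 8.74 and 9.74 in its control. ITIH5 (NM_001001851), an inter-alpha-trypsin inhibitor heavy chain, had nt 2134 to 2153 at 11.14 and 10.56 in HITS-CLIP AEG1 and 10.56 and 10.56 in its control, and PAR-CLIP AEG1 had no site on this mRNA. ATG7 (NM_006395), the E1-like enzyme of autophagy, had nt 1229 to 1249 at 8.08 and 8.08 in HITS-CLIP AEG1, at 8.08 in PAR-CLIP AEG1 and at 9.08 and 8.08 in the HITS-CLIP control. The AEG1 and control scores of these 3 mRNAs met or overlapped.

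WNT2B (NM_004185), a Wnt ligand, had nt 1478 to 1500 at 13.23 and 12.81 in HITS-CLIP AEG1, 11.23 in PAR-CLIP AEG1 and 11.22 in HITS-CLIP control 2. RFX2 (NM_134433), a transcription factor of cilium genes, had nt 3168 to 3186 at 12.55 and 12.88 in HITS-CLIP AEG1, 10.96 in PAR-CLIP AEG1 and 10.88 in HITS-CLIP control 1. In both, 1 HITS-CLIP control and the PAR-CLIP control were without a site. The HITS-CLIP control that had one scored lower than either HITS-CLIP AEG1 replicate. CRAT (NM_000755), the carnitine acetyltransferase, followed at nt 535 to 556, with 7.35 and 7.94 in HITS-CLIP AEG1, 5.36 in PAR-CLIP AEG1 and 5.27 in control 2. SETD1A (NM_014712), a histone H3 lysine 4 methyltransferase, had nt 628 to 646 at 7.86 and 7.36 in HITS-CLIP AEG1 and 7.94 in control 2, and SBNO2 (NM_014963) had nt 3147 to 3167 at 8.38 in each of the AEG1 replicates and in control 2. TTC8 (NM_198310), a subunit of the BBSome of cilia, had nt 1849 to 1869 at 8.45 and 9.04 in HITS-CLIP AEG1 and 8.95 and 7.45 in its control, with overlapping groups.

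Scores could be set side by side at 22 loci that were short in both AEG1 replicates and had a site in both HITS-CLIP controls. Both AEG1 scores lay above both control scores at 3 of the 22, below both at 1 and overlapped at 18. Over the 27 loci of any width with a site in all 4 libraries, which include the 22, both lay above in 25.9 percent and both below in 3.7 percent. The 3 were RNF157, a ubiquitin ligase, with 11.63 and 12.63 in HITS-CLIP AEG1 against 10.63 and 10.55 in its control, EIF2B4, a subunit of a translation initiation factor, with 7.31 and 7.07 against 6.61 and 6.42, and SNX12, a sorting nexin, with 7.28 and 6.69 against 6.28 and 6.28. NIF3L1 was the one below, at 5.97 and 5.97 in HITS-CLIP AEG1 against 6.05 and 6.05 in its control. The median difference of the means over the 22 loci was 0.52, with a range of -0.50 to 1.54. As the scale of each library is unknown, these values describe the scores alone.

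Of the loci short in both replicates without a control site, 10 were picked by the rank of their lower score. That rank sets scores of different mRNAs against each other, so it serves to pick examples and is not read as an order of amount. The 10 include ANKRD20A4 (NM_001098805) at nt 8 to 28, with 13.96 and 13.95 in HITS-CLIP AEG1. ADAM11 (NM_002390), a metalloprotease family member, had nt 801 to 818 at 13.19 in both replicates. HOXD1 (NM_024501), a homeobox transcription factor, had nt 263 to 283 at 12.37 and 12.95, and was the 1 locus of the 10 with a PAR-CLIP AEG1 site, at 9.04. The others were on ZNF90, PCDHGB2, ZC3H12B, ZNF653, MCC, FCSK and ZNF185. ANKRD20A4, ZNF90 and PCDHGB2 belong to families of closely similar genes, so the assignment of such narrow sites to 1 member is uncertain. In 9 of the 10 the short site was the only one on its mRNA in both replicates, and on 8 of the 10 mRNAs PAR-CLIP AEG1 had no site at any position.

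**Figure D3:**
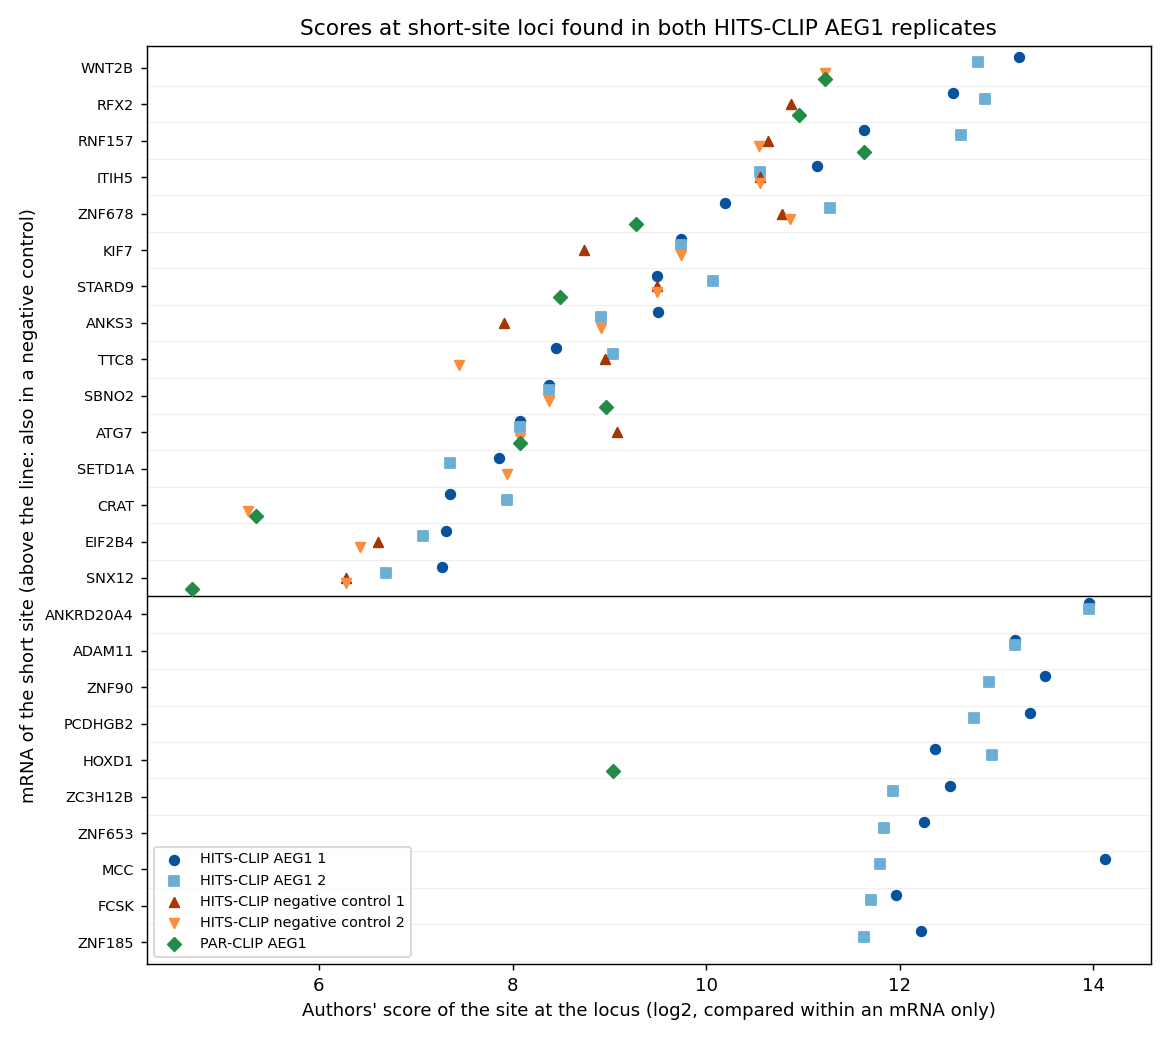
Authors' log2 score of the site at each of 25 loci with a short site in both HITS-CLIP AEG1 replicates, by library, with the 15 that also had a negative control site above the line. Above the line, the AEG1 and control points of ITIH5, ZNF678, KIF7, STARD9, ANKS3, TTC8, SBNO2 and ATG7 overlap or meet, WNT2B, RFX2 and CRAT have both AEG1 points to the right of the single control and SETD1A has both to the left of it, and RNF157, EIF2B4 and SNX12 have both AEG1 points to the right of both controls.

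PAR-CLIP AEG1, the longest list of the series, had a site at under 50% of the short sites. It met 188 of 434 short sites of replicate 1 (43.3%, 38.6 to 48.1) and 175 of 396 of replicate 2 (44.2%, 39.2 to 49.2), where all sites were met in 90.2 and 90.4 percent. Longer sites were met in 93.7% and 93.9% of cases, and by midpoint the contrast was 43.1% and 44.2% of short sites against 92.9% and 93.1% of longer ones and 89.5 and 89.6 percent of all sites. The intervals hold counting error over sites alone and PAR-CLIP AEG1 is 1 library, so the contrast was not tested. A short PAR-CLIP AEG1 site was there at 20 short sites in each replicate (4.61% and 5.05%), where all sites met one in 0.345 and 0.407 percent. By locus, 297 of 659 (45.1%) had a PAR-CLIP AEG1 site and 27 a short one.

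Where PAR-CLIP AEG1 had no site at the short site, it often had one on the mRNA. An mRNA with a PAR-CLIP AEG1 site carried 339 short sites of replicate 1 (78.1%) and 310 of replicate 2 (78.3%), where all sites had one in 97.6 percent in each replicate. PAR-CLIP AEG1 had a site elsewhere on the mRNA for 151 short sites (34.8%) in replicate 1 and 135 (34.1%) in replicate 2, and none on the mRNA for 95 (21.9%) and 86 (21.7%). For longer sites, the mRNA was without a PAR-CLIP AEG1 site in 0.925% and 0.932% of cases. The share met also differed with the company of the site on its mRNA. Short sites alone on their mRNA were met in 93 of 306 cases in replicate 1 (30.4%, 25.3 to 35.9) and 100 of 304 in replicate 2 (32.9%, 27.6 to 38.5), against 71.8% and 71.7% of longer sites that were alone. Short sites with another site on the mRNA were met in 95 of 128 (74.2%) and 75 of 92 (81.5%) cases, against 96.6% and 96.8% of longer sites in that position.

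**Figure D4:**
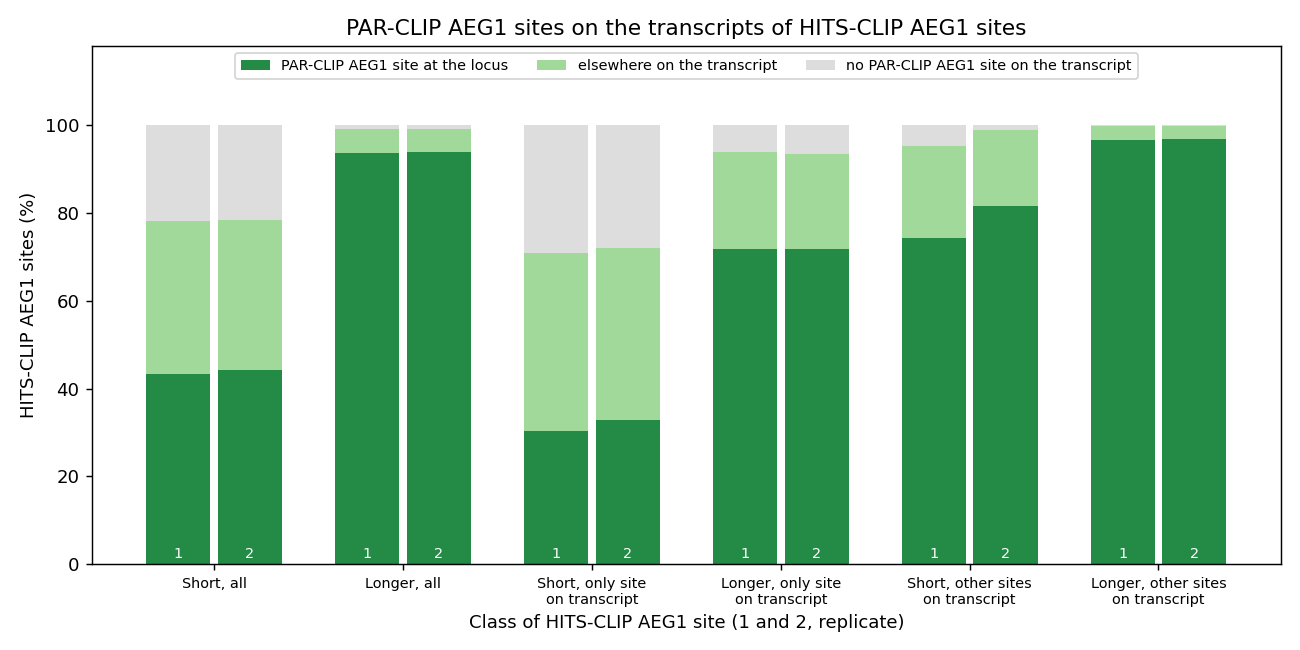
HITS-CLIP AEG1 sites (%) by whether PAR-CLIP AEG1 had a site at the same place, elsewhere on the mRNA or nowhere on it, for short and longer sites of each replicate, over all sites and split by whether other sites lie on the mRNA. Over all sites, the short classes hold 43.3% and 44.2% with a site at the same place, against 93.7% and 93.9% for longer sites.

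The PAR-CLIP share was close in value for short loci of both replicates and of 1. PAR-CLIP AEG1 had a site at 66 of the 171 loci short in both replicates (38.6%) and at 146 of the 373 in a single replicate (39.1%). It had one at 85 of the 115 loci whose partner in the other replicate was longer (73.9%). Loci short in both replicates with neither a PAR-CLIP AEG1 site nor a control site numbered 94 (14.3% of all short-site loci), and loci in a single replicate with no site in any other library 216 (32.8%). These counts too have no counterpart over longer sites here. Short sites with a control site were met by PAR-CLIP AEG1 in 22 of 40 cases in replicate 1 (55.0%) and 32 of 50 in replicate 2 (64.0%), against 42.1% and 41.3% of short sites without one.

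At the shared places the PAR-CLIP AEG1 site was usually the wider one, which the choice by width largely fixes. Only 0.241% of PAR-CLIP AEG1 sites were 25 nt or less. The median PAR-CLIP width was 81 nt at the short sites of replicate 1 and 66 nt at those of replicate 2, against 293 and 310 nt at longer sites. A PAR-CLIP AEG1 site enclosed the whole short site in 88.8% and 86.3% of cases, and the whole longer site in 88.0% and 87.6%. The HITS-CLIP score was lower than the PAR-CLIP score at 117 and 94 of these short sites, equal at 16 and 22 and higher at 55 and 59, with a median difference of -1.0 and -0.32. For longer sites the median difference was -2.32 and -2.36. With the scaling between the libraries not stated, these differences are not read as amounts.

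The presence measures varied with width on both sides of 25 nt. Midpoints lay in a PAR-CLIP AEG1 site for 32.8% and 35.2% of the sites of 18 to 20 nt, 50.6% and 51.4% of those of 21 to 25 nt, 77.2% and 76.1% of those of 26 to 30 nt, and 98.2% and 98.5% of those over 75 nt. Control presence, given above for the classes up to 25 nt, was 1.83% and 1.14% for 26 to 30 nt, and 2.42% and 3.43% over 75 nt. Presence in the other replicate was 52.5% and 55.1% at 18 to 20 nt, 47.9% and 62.5% at 26 to 30 nt and 73.7% and 79.7% over 75 nt. In between, it was 49.9% and 62.4% at 31 to 40 nt and 54.3% and 60.8% at 41 to 50 nt. The site was alone on its mRNA for 82.0% and 89.8% at 18 to 20 nt, 28.3% and 30.3% at 26 to 30 nt and 4.92% and 3.35% over 75 nt.

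**Figure D5:**
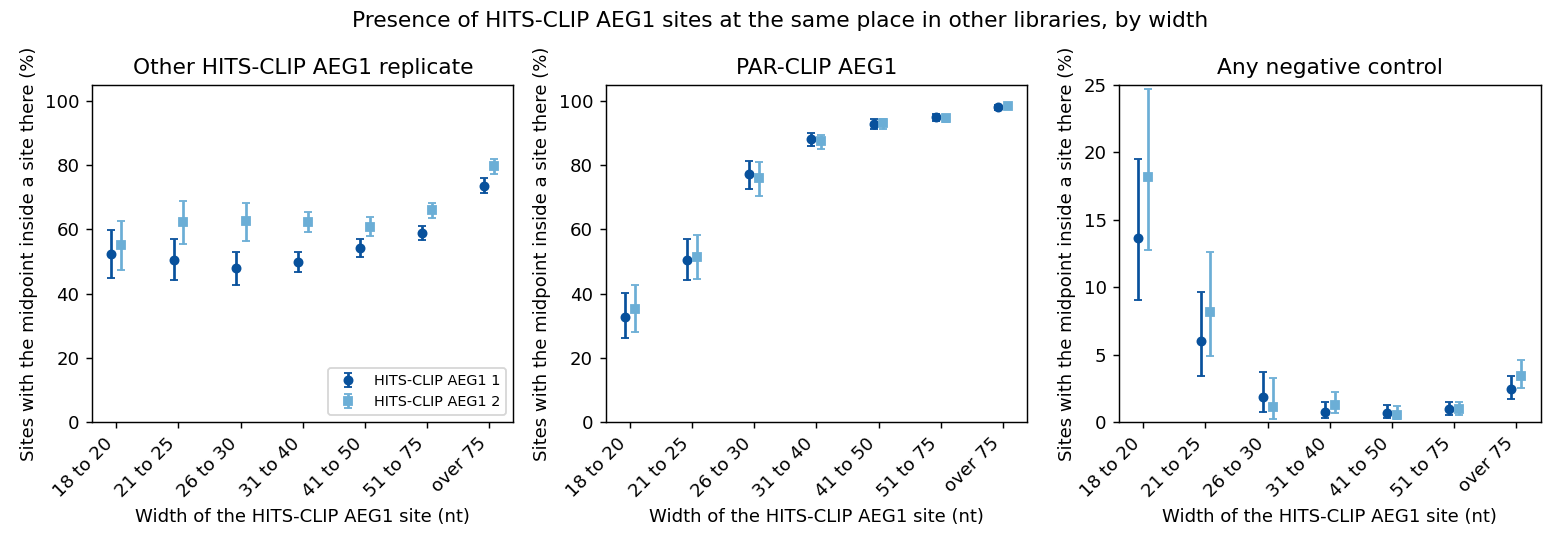
Share (%) of HITS-CLIP AEG1 sites whose midpoint lies inside a site of PAR-CLIP AEG1, of the other replicate or of any negative control, by width class, with 95% exact intervals for both replicates. The classes of 18 to 20 and 21 to 25 nt have the lowest PAR-CLIP shares and the highest control shares.

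Within an mRNA, short sites mostly scored below longer sites. In replicate 1, the median score of the short sites minus that of the longer sites was below 0 on 92 of 110 mRNAs that had both, equal on 4 and above on 14, with a median of -1.08. In replicate 2 it was below 0 on 59 of 79 mRNAs, equal on 6 and above on 14, with a median of -1.41. Against longer sites of 26 to 50 nt alone the differences were smaller, with medians of -0.86 over 93 mRNAs and -0.75 over 63. Short sites with another site on their mRNA numbered 128 and 92, and the nearest neighbour was at a median of 162.5 nt in replicate 1 and 142 nt in replicate 2, against 43 and 47 nt for longer sites. A neighbour lay within 50 nt of 32 and 29 short sites.

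Along the mRNA, the short sites began at a median of nt 1061 in replicate 1 and nt 1124.5 in replicate 2, and the longer sites at nt 1033.5 and 1038. Near the 5′ end, the short class had 37 starts within the first 100 nt in each replicate (8.53% and 9.34%), against 3.16% and 2.95% of longer sites. Within the first 500 nt the shares were 31.3% and 29.0% of short sites and 21.5% and 21.2% of longer ones. Neither mRNA length nor the number of sites per mRNA was taken into account, so these shares are not read as a preference for the 5′ end. The farthest start was nt 56113 on TTN (NM_133378), the giant sarcomere protein, with a site at 15.54 in replicate 2 alone. Coding and untranslated parts of the mRNAs were not analysed here.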

How the data were processed

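The submitters' processing notes name Bowtie; its version, the reference, the site caller and any use of the controls are not stated there. The deposited files hold 1 library each and give for every site an mRNA, a symbol, both ends and a score of the authors, taken as log2 from its values, with no normalization stated. Starts were taken as 0-based and are printed 1-based on the mRNA. Sites were compared per mRNA by overlap of at least 1 nt, with scores called equal within 0.01.

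The members and the 19 gene lists were chosen with earlier results of these data known. Named loci are those short in both replicates with a control site (at most 15) or without (10), by the higher of their lower scores, and named genes are the 10 with most short sites, the 2 leading members of each list, MTDH and SND1; some are not given. Of 631 mRNAs with a short site, 626 were named by accession from a RefSeq table (GRCh38.p14), 2 by symbol, 2 by synonym and 1 from the file. No mRNA sequence is shown.

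Intervals of shares are exact (Clopper-Pearson, 95%) and hold counting error alone. Sites of a library are not replicates, so shares of sites have no test. The planned exact permutation test of the numbers and shares of short sites per library is not read, because width chose the members and 2 against 2 libraries cannot go below p = 0.333. The overlap calls were tested on 2000 simulated sites under 5 definitions, with 0 wrong calls. Alternatives changed the width limit, the overlap rule, the mRNAs used and the replicates. Python 3.11.15, pandas 2.3.3, NumPy 2.4.6, SciPy 1.17.1 and matplotlib 3.10.9 were used.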

Additional observations from a re-analysis of the deposited data

How the results depend on the processing

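No direction reversed under the alternatives tried. The ratio of short-site numbers, 8.3, was 5.13 at a limit of 20 nt, 14.2 at 30 nt, 7.41 with both ends counted, 6.80 to 10.6 without 1 replicate and 8.50 with the replicate block. The ratio of shares, 0.104, was 0.0641 at 20 nt, 0.178 at 30 nt, 0.0930 with both ends counted, 0.102 to 0.106 without 1 replicate and 0.104 with the replicate block. At 20 and 30 nt, PAR-CLIP presence (mean 43.8%) was 34.0% and 58.3%, control presence (10.9%) 15.9% and 6.90%, and the endomembrane share (7.06%) 4.17% and 14.3%. With the whole short site inside the other site, presence was 38.3% in PAR-CLIP AEG1, 6.78% in a control and 40.7% in the other replicate (55.2% by overlap). PAR-CLIP presence was 47.4% with a gap of 50 nt allowed and 40.6% without mRNAs with a control site. Recurrence as a short site (41.3%) was 19.8% with identical ends. The score difference within an mRNA (-1.24) was -0.80 against longer sites of 26 to 50 nt. Without replicate 1 or 2, the means ranged over 51.4 to 59.1% for the other replicate, 43.3 to 44.2% for PAR-CLIP, 9.22 to 12.6% for controls, 39.4 to 43.2% for short recurrence, 6.06 to 8.06% for the endomembrane share and -1.41 to -1.08 for the score. The other settings moved these values by less than their spread. Read depth is unknown, the controls hold 60, 90 and 121 sites, and absence from them does not show absence of the RNA.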

Other observations

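Some further short-site loci were chosen after their values were seen. ABCC3 (NM_003786), a transporter of bile salts, was the locus with a site in all 3 controls: nt 1203 to 1222 was longer in HITS-CLIP AEG1 replicate 1 (10.69) and short in replicate 2 (9.46), with 11.58 in PAR-CLIP AEG1, 8.88 and 7.88 without UV in HITS-CLIP and 8.79 without UV in PAR-CLIP. MKI67 (NM_001145966), the Ki-67 proliferation antigen, had nt 3660 to 3678 at 5.53 and 5.45 in HITS-CLIP AEG1, 5.54 in PAR-CLIP AEG1 and 5.45 and 4.45 in its HITS-CLIP controls. CBX5 (NM_001127321), a heterochromatin protein, had nt 11225 to 11245 at 5.31 in HITS-CLIP AEG1 replicate 1, not in replicate 2, and at 5.39 and 5.31 in the HITS-CLIP controls. DROSHA, the nuclease of primary microRNA processing, had 6.76 and 6.18 in HITS-CLIP AEG1 and 6.76 and 6.76 in its control.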
